A study of Homo sapiens with 3 samples.

Results

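The tubulin genes described here are 10 alpha- and beta-tubulins (TUBA1A, TUBA1B, TUBA1C, TUBA4A, TUBB, TUBB2A, TUBB2B, TUBB3, TUBB4B and TUBB6), measured in UM-UC-3, a human bladder cancer cell line. The set was chosen from the array values themselves, because TUBA1A was higher with both siRNAs against WDR5, so the difference of TUBA1A is a description and was not tested. A probe set, the group of short probes that gives 1 intensity on the array, was counted for a gene when the annotation gave that gene as its only symbol. By this rule 8 of the 10 genes had probe sets of their own, 21 of the 45064 single-symbol probe sets on the array. TUBA1B shared its 2 probe sets with TUBA1A, and TUBB2B shared its single one with DXO, so neither gene has a value of its own here. Of the 21 probe sets, 20 passed the intensity limit of 152, which is the median of the mean intensities of all 49293 probe sets on the array, and were used for the gene values.

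To study the target genes of WDR5, a core subunit of the histone H3 lysine 4 methyltransferase complexes, UM-UC-3 cells were transfected with si-WDR5-2, si-WDR5-3 or control siRNA, each at 75 nM, and RNA was taken after 48 h. The 2 WDR5 siRNAs differ in sequence, and their target positions in WDR5 are listed as 999 and 585. For every condition total RNA went onto a single PrimeView array (Affymetrix), so the 3 arrays hold no replicate and no difference can be set against a spread between cultures. Both comparisons share the 1 control array. The siRNA sequences are shown because they define the groups, with the 3′ overhang in capitals.
si-WDR5-2: gcucagaggauaaccuuguTT
si-WDR5-3: cccaguccaaccuuauuguTT
control siRNA: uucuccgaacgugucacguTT

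The 2 probe sets of WDR5 itself had ratios to the control array of 0.201 and 0.231 with si-WDR5-2, and of 0.311 and 0.323 with si-WDR5-3. The median intensity of the arrays was 149.9 with si-WDR5-2, 151 with si-WDR5-3 and 151 with control siRNA. The si-WDR5-2 array stood apart in its interferon-induced genes, with a median log2 ratio over 20 genes of 2.14, against -0.64 on the si-WDR5-3 array. The intensity limit applies to the mean of the 3 arrays, so a gene can pass it through 1 array alone. CXCL10 did so, at 780 with si-WDR5-2, 90.1 with si-WDR5-3 and 98.1 with control siRNA. How many others of the 20 did was not counted. Over 17 proliferation genes the medians were -0.73 and -0.19. Of 15 urothelial markers 8 had a probe set past the intensity limit, with KRT18 at 1408, 2155 and 1968 and KRT8 at 219, 186 and 176 on the si-WDR5-2, si-WDR5-3 and control arrays. The epithelial markers EPCAM, at 62.7, 63.3 and 63.0, and CDH1, at 99.0, 106 and 104, lay below it. All 3 mesenchymal markers passed it, with VIM at 8061, 9386 and 10126, CDH2 at 276, 319 and 224, and ZEB1 at 1304, 1276 and 1201. The leukocyte marker CD3E, at 158, 175 and 176, and the endothelial marker PECAM1, at 274, 287 and 274, passed it too. PTPRC and CDH5 of the same classes lay below it. Some urothelial markers were also close to the limit, such as KRT7 at 175, 161 and 166. A value past the limit therefore does not by itself show a cell type. Values are from bulk RNA, in which a change in the share of cells that express a gene and a change in RNA per cell cannot be told apart.

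Microtubules are hollow polymers of alpha- and beta-tubulin heterodimers that form the mitotic spindle, carry transport in the cytoplasm and build cilia. Human cells encode each subunit in several isotypes that are very similar in their core and differ mainly in the acidic C-terminal tail. TUBA1B and TUBA1C are widely expressed alpha isotypes, whereas TUBA1A, TUBB2A, TUBB2B and TUBB3 are best known from developing neurons. Tubulin mRNAs are also subject to autoregulation, in which a surplus of free heterodimer leads to decay of the mRNAs while they are translated.

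TUBA1A, TUBA1B and TUBA1C lie next to each other on chromosome 12, with no other protein-coding gene between them in the RefSeq table. The 200 bases before their RefSeq starts are shown, since TUBA1A and TUBA1C gave different readouts. TUBA1B, which has no value of its own, shares probe sets with TUBA1A other than those used for the TUBA1A value. The same stretch of TUBB4B, the beta-tubulin with the lowest ratios, is shown too. Sequences are those of RefSeq on GRCh38.p14, written 5′ to 3′ on the strand of the gene, and TUBA1C is shown for the last of its 3 listed starts. Capitals mark the letters CCAAT (the CCAAT box), GGGCGG (the GC box), CACGTG (an E-box) and TATAAA (the TATA box) on either strand.
TUBA1A, chr12:49189081-49189280 (minus strand): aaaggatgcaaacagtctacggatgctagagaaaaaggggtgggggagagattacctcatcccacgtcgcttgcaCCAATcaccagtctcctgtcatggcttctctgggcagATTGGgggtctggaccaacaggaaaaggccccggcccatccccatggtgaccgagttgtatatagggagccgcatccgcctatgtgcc
TUBA1B, chr12:49131396-49131595 (minus strand): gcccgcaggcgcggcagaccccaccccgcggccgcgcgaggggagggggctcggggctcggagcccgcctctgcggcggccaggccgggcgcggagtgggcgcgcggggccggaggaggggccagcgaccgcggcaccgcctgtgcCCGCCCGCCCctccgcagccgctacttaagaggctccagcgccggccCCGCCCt
TUBA1C, chr12:49264882-49265081 (plus strand): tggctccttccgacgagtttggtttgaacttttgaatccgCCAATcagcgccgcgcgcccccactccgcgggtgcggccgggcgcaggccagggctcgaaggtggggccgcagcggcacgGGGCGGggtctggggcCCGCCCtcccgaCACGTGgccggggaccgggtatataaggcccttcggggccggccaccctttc
TUBB4B, chr9:137241087-137241286 (plus strand): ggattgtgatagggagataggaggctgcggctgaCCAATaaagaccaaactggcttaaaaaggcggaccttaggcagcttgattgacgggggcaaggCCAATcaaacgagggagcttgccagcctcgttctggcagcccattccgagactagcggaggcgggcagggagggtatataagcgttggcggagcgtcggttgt

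The TUBA1A stretch held 2 CCAAT boxes, beginning 125 and 88 bases before the start, and none of the other letters searched. That of TUBB4B held 2 CCAAT boxes as well, at 166 and 103 bases, and none of the others. TUBA1B had 3 GC boxes, of which 2 overlap, and no CCAAT box. The TUBA1C stretch had 1 CCAAT box, 2 GC boxes and 1 E-box. The CCAAT box was found in 28.0% of all 35116 RefSeq stretches of this length, the GC box in 40.1%, the E-box in 5.49% and the TATA box in 8.59%. Over the 15 listed starts of the 10 tubulin genes, 9 stretches held a CCAAT box, 9 a GC box, 2 an E-box and 1 a TATA box. Some genes have several starts, and 2 of the 3 TUBA1C stretches overlap and hold the same CCAAT box, which was counted in each. The median G and C content was 72% for these 15 stretches and 59% for all. Only the exact letters listed were searched, so near forms such as tatataag in TUBA1C and TUBB4B were not counted as a TATA box. These matches describe letters in a window, and no binding was measured here.

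Among the alpha-tubulins, TUBA1A was above the control with both WDR5 siRNAs, at gene ratios of 2.09 and 2.18, and the other alpha-tubulins with probe sets of their own were close to it. The brighter TUBA1A probe set had an intensity of 2224 with si-WDR5-2, 2299 with si-WDR5-3 and 1078 with control siRNA. The dimmer one had 1785, 1873 and 841 on the same arrays. Both probe sets were thus high on both knockdown arrays and low on the control array. Their ratios to the control were 2.06 and 2.12 for si-WDR5-2 and 2.13 and 2.23 for si-WDR5-3. The gene value, the median over probe sets, was 1.07 ± 0.03 on the log2 scale for si-WDR5-2 and 1.12 ± 0.04 for si-WDR5-3 (SD over 2 probe sets, a spread between probes and not between cultures). The si-WDR5-2 array had higher values than the control array for all 20 interferon-induced genes past the limit and the si-WDR5-3 array lower values. CXCL10 among them passed the limit only through the si-WDR5-2 array. The part of these genes in the TUBA1A values was not tested.

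TUBA1C was at 4625, 4639 and 4380 on the si-WDR5-2, si-WDR5-3 and control arrays for 1 probe set and at 4354, 4366 and 4383 for the other. The arrays thus lay close together at TUBA1C, with gene ratios of 1.02 and 1.03 for the 2 siRNAs. TUBA4A, an alpha isotype whose gene does not encode the C-terminal tyrosine of the other isotypes, had 702, 769 and 747 on its brighter probe set and 316, 334 and 321 on its dimmer one. Its gene ratios were 0.962 and 1.03 for the 2 siRNAs.

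The probe sets that match both TUBA1A and TUBA1B did not show the difference seen at the TUBA1A probe sets. The first had intensities of 6105 with si-WDR5-2, 7732 with si-WDR5-3 and 7444 with control siRNA, and the second 5216, 7437 and 7085. Both were below the control with si-WDR5-2, with ratios of 0.820 and 0.736, and close to it with si-WDR5-3, with ratios of 1.04 and 1.05. How much of this signal comes from either gene cannot be told from the array. With these probe sets counted for TUBA1A, its gene value on the log2 scale was 0.379 for si-WDR5-2 and 0.581 for si-WDR5-3, both short of the limit of 0.585 that stands for 1.5 times the control. Beside the 3 alpha-tubulin genes on chromosome 12, the flanking genes LMBR1L and PRPH had ratios of 1.03 and 0.977 for si-WDR5-2, and of 0.943 and 1.00 for si-WDR5-3.

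**Figure D1:**
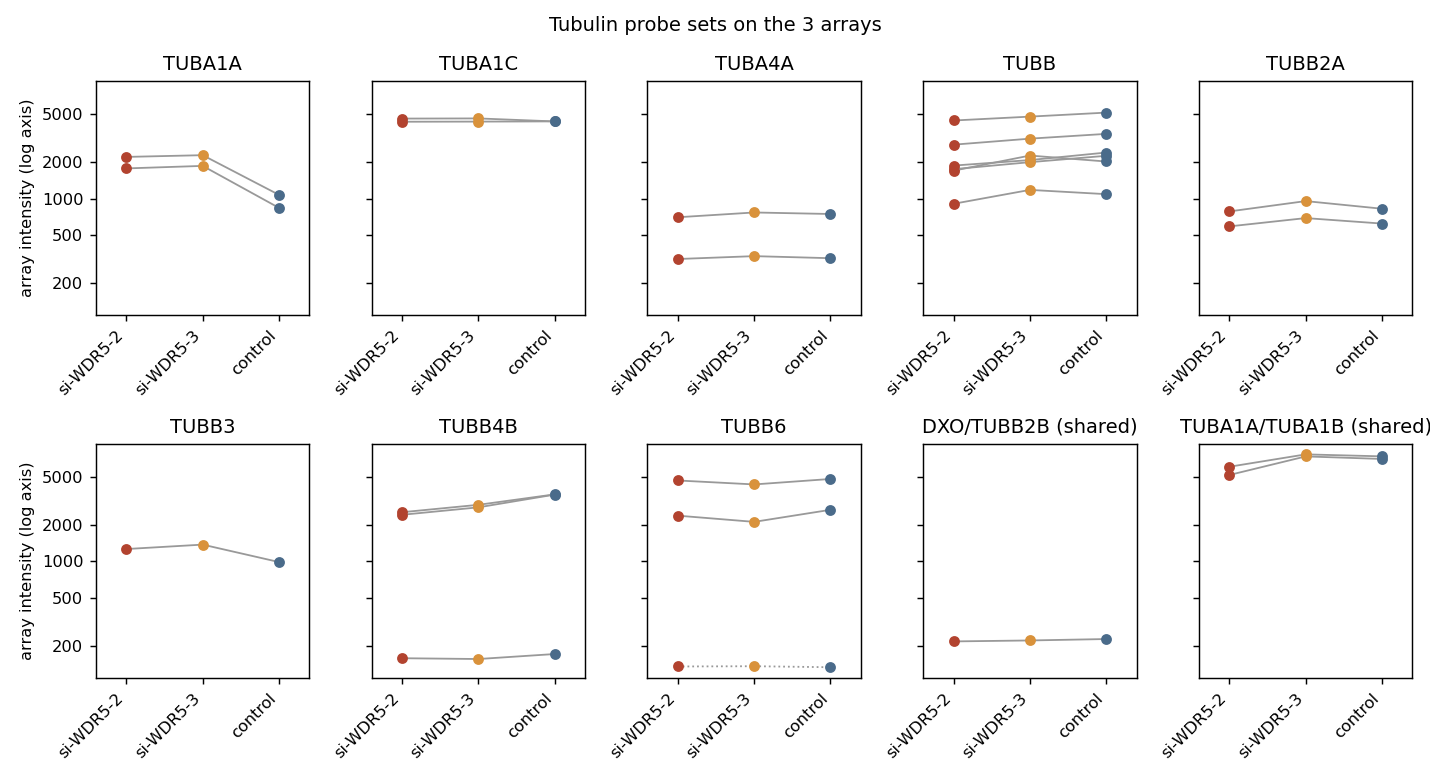
Array intensity (log axis) of every tubulin probe set with si-WDR5-2, si-WDR5-3 and control siRNA, 1 array each, with 1 line per probe set and a panel for each gene. The 2 panels marked shared hold probe sets with a second symbol, and the dotted line is the TUBB6 probe set below the intensity limit. The TUBA1A lines drop to 1078 and 841 on the control array, whereas the TUBB4B lines at 3601 and 3586 are highest there.

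Among the beta-tubulins, 4 of 5 genes were below the control with si-WDR5-2. All probe sets of TUBB4B and TUBB6 past the limit were below it with both siRNAs. TUBB3 was above the control with both, and no beta-tubulin was at least 1.5 times or at most 0.67 times the control. TUBB4B, a widely expressed isotype that also builds the axonemes of cilia, had 2561, 2951 and 3601 on the si-WDR5-2, si-WDR5-3 and control arrays for its brightest probe set and 2439, 2811 and 3586 for the next. The remaining probe set, at 157, 155 and 171, was close to the intensity limit. The ratios of the 2 bright probe sets were 0.711 and 0.680 for si-WDR5-2 and 0.819 and 0.784 for si-WDR5-3, and those of the dim one 0.923 and 0.909. The gene value of TUBB4B was -0.49 ± 0.24 on the log2 scale for si-WDR5-2 and -0.29 ± 0.11 for si-WDR5-3 (SD over 3 probe sets).

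TUBB, the main beta isotype of many dividing cells, had 6 probe sets, and all 6 were below the control with si-WDR5-2, with ratios of 0.775 to 0.860. With si-WDR5-3 they split, with 4 ratios of 0.866 to 0.926 and the other two at 1.08 and 1.12. The brightest had intensities of 4458, 4801 and 5183 on the si-WDR5-2, si-WDR5-3 and control arrays, and the one with a ratio of 1.12 had 1710, 2282 and 2037. The gene value of TUBB was thus -0.28 ± 0.06 on the log2 scale for si-WDR5-2 and -0.12 ± 0.16 for si-WDR5-3 (SD over 6 probe sets). For si-WDR5-3 the spread between probe sets was larger than the value.

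TUBB3, widely used as a marker of neurons, rests on 1 probe set. Its intensity was 1268 with si-WDR5-2, 1379 with si-WDR5-3 and 989 with control siRNA, with ratios of 1.28 and 1.40. After TUBA1A it had the highest ratio of the 8 genes with both siRNAs. Of 3 neuronal marker genes SYP was past the intensity limit, at 380, 402 and 407, while RBFOX3, at 138, 141 and 146, and MAP2, at 81.2, 81.9 and 76.8, lay below it.

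TUBB2A had 785, 956 and 827 on its brighter probe set and 590, 691 and 622 on the other. Both probe sets were slightly below the control with si-WDR5-2 and above it with si-WDR5-3, with gene ratios of 0.949 and 1.13. The probe set that TUBB2B shares with DXO stayed near the control, with 217, 221 and 227 on the si-WDR5-2, si-WDR5-3 and control arrays. TUBB6 had 4696, 4355 and 4834 on its brightest probe set and 2398, 2130 and 2682 on the next. Among the 8 listed genes with a value, TUBB6 was the single one lower with si-WDR5-3 than with si-WDR5-2. Its gene ratios were 0.932 for si-WDR5-2 and 0.846 for si-WDR5-3. Its dim probe set, with 134, 135 and 133, lay below the limit and was left out.

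**Figure D2:**
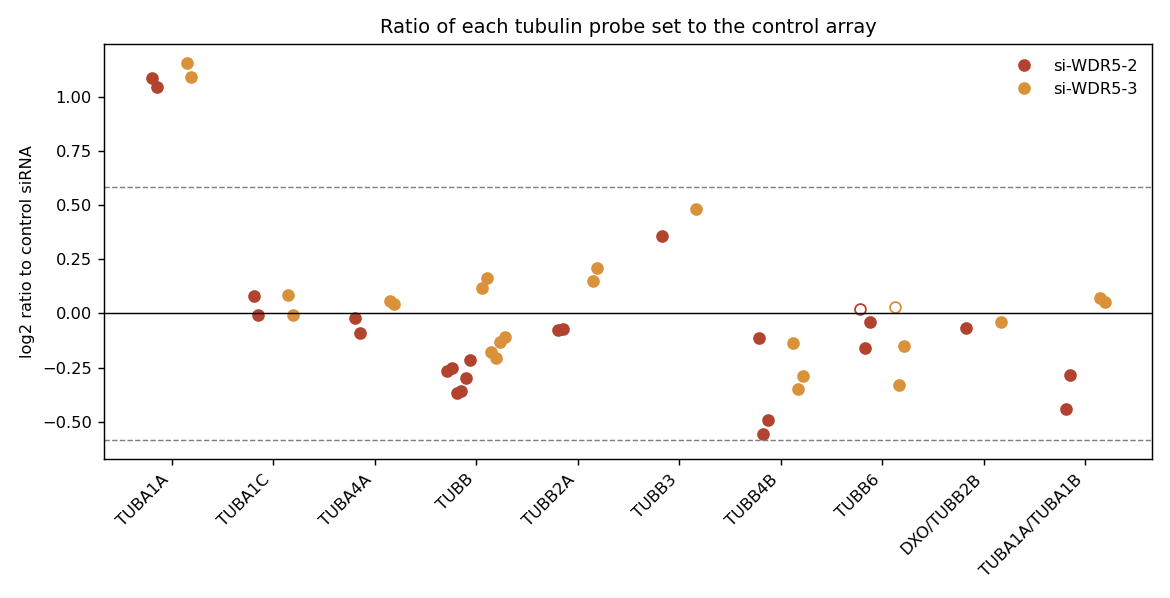
Log2 ratio to control siRNA of each tubulin probe set, si-WDR5-2 left of si-WDR5-3 within each gene, with dashed lines at 1.5 times and its inverse and the open circles for the probe set below the intensity limit. Only the TUBA1A points, with ratios of 2.06 to 2.23, lie outside the dashed lines, and the lowest point is a TUBB4B probe set with a ratio of 0.680 for si-WDR5-2.

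Counted over the 20 probe sets past the limit, 2 were at least 1.5 times the control with si-WDR5-2, against 5.51% of all 24647 probe sets, and 2 with si-WDR5-3, against 2.90%. The same 2 probe sets, both of TUBA1A, made up each count, and 1.54% of all probe sets were that high with both siRNAs. This is the difference by which the genes were picked. None of the 20 was at most 0.67 times the control, while 3.83% of all probe sets were with si-WDR5-2, 1.80% with si-WDR5-3 and 0.434% with both. Apart from TUBA1A, the 18 other probe sets had ratios of 0.680 to 1.28 for si-WDR5-2 and of 0.784 to 1.40 for si-WDR5-3. For scale, the 5th and 95th percentiles of all probe sets were ratios of 0.702 and 1.53 for si-WDR5-2 and of 0.763 and 1.37 for si-WDR5-3.

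The median of the 8 tubulin gene values on the log2 scale was -0.07 for si-WDR5-2 and 0.04 for si-WDR5-3, beside -0.02 and -0.00092 over all 11501 genes. Of the 14 beta-tubulin probe sets 13 were below the control with si-WDR5-2 and 9 were with si-WDR5-3. The 13 came from 4 genes, with 6 from TUBB and 3 from TUBB4B, so they are repeated readings of few genes. Of the 6 alpha-tubulin probe sets 3 were below the control with si-WDR5-2, against 1 for si-WDR5-3. The share of all probe sets or genes below the control was not computed. Set directly against each other, 7 of the 8 genes were lower with si-WDR5-2 than with si-WDR5-3, as were 54.4% of all genes. The largest such gap was that of TUBB2A, at a ratio of 0.837, and the TUBA1A ratio was 0.960. Proliferation genes also lay further below the control with si-WDR5-2, and their part in these gaps was not tested.

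Tubulin transcripts are so alike that probes can be shared between them. On this array an ID that ends in x marks a probe set with probes that may match other transcripts, and one that ends in s marks probes common to several transcripts. Of the 21 tubulin probe sets 12 were of the first kind, or 57.1%, against 16.0% of all probe sets, and 6 were of the second kind. Both TUBA1A probe sets and the TUBB3 probe set were of the first kind, so no value remained for either gene without them.

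The genes whose pair of log2 ratios was nearest to that of TUBA1A, by Euclidean distance over the 2 siRNAs among 5822 genes with at least 2 probe sets, were AHNAK2, GANAB, CLIP1, TOMM22 and GAS1. AHNAK2 had ratios of 1.94 for si-WDR5-2 and 2.18 for si-WDR5-3, a log2 distance of 0.11 from TUBA1A. CLIP1, which encodes the microtubule plus-end protein CLIP-170, had ratios of 2.20 and 1.99, and TOMM22, a receptor of the mitochondrial import complex, of 2.05 and 2.42. With 3 arrays this likeness rests on 2 ratios that share a control.

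In the wider tubulin and microtubule pathway, 76 genes of 11 lists had a probe set past the limit. With si-WDR5-2, 2 of them were at least 1.5 times the control, beside 5.00% of all genes, and 7 were at most 0.67 times, beside 3.35%. With si-WDR5-3, 1 was higher, beside 2.34%, and 2 were lower, beside 1.57%. Of the 7 genes lower with si-WDR5-2, 5 encode subunits of the chaperones TRiC or prefoldin, which take part in folding new tubulin. Both genes lower with si-WDR5-3 encode TRiC subunits.

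The TRiC chaperonin folds newly made tubulin, and 3 of its 8 genes were lower with si-WDR5-2 and 2 were with si-WDR5-3. The median log2 ratio of the 8 genes was -0.34 for si-WDR5-2 and -0.25 for si-WDR5-3. CCT7 had 1338 with si-WDR5-2, 1291 with si-WDR5-3 and 2647 with control siRNA on its 1 probe set, with ratios of 0.506 and 0.488. CCT4 had ratios of 0.611 and 0.663 over 4 probe sets, and TCP1 of 0.588 and 0.882. The knockdown arrays were thus both low at CCT7 and CCT4, and at TCP1 mainly the si-WDR5-2 array was. CCT5 was the 1 TRiC gene above the control with either siRNA, at ratios of 1.09 and 1.21. Prefoldin hands unfolded tubulin to TRiC, and 2 of its 6 genes were lower with si-WDR5-2 and 0 were with si-WDR5-3. VBP1, the prefoldin subunit 3, had ratios of 0.512 and 1.05, and PFDN4 of 0.541 and 0.903 on 1 probe set. A dimmer PFDN4 probe set, below the limit, had ratios of 0.784 and 0.958. PFDN2 and PFDN6 were above the control with si-WDR5-2, at 1.30 and 1.23, and below it with si-WDR5-3, at 0.939 and 0.879. None of the 7 tubulin folding cofactors, which act after TRiC in assembling the heterodimer, passed 1.5-fold, and TBCB had the largest difference with ratios of 1.35 and 1.24.

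Among the plus-end proteins and stabilisers, 1 of 18 genes, CLIP1, was higher with both siRNAs by its median over probe sets. MAPRE1 was not, but its 2 probe sets differed, with ratios of 0.672 and 1.56 for si-WDR5-2 and 1.06 and 1.94 for si-WDR5-3. CLIP1 had gene intensities of 794 with si-WDR5-2, 720 with si-WDR5-3 and 361 with control siRNA. Its 2 dimmer probe sets, below the limit, had ratios of 1.497 and 1.37 for si-WDR5-2 and of 1.57 and 1.27 for si-WDR5-3. TPX2, a spindle assembly factor, had ratios of 0.602 and 0.857. Of 7 stathmin and severing enzyme genes FIGNL1, a relative of the severing enzyme fidgetin, was the 1 past 1.5-fold, with ratios of 0.514 and 0.680.

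TUBE1, the epsilon-tubulin of the centriole, had 606 with si-WDR5-2, 287 with si-WDR5-3 and 337 with control siRNA on 1 probe set, with ratios of 1.80 and 0.851. It was thus high on the si-WDR5-2 array and lower on the si-WDR5-3 and control arrays. TUBG1, the gamma-tubulin that nucleates microtubules, had ratios of 0.863 and 0.968, and none of 7 genes of its ring complex passed 1.5-fold, with TUBGCP4 furthest from the control at 0.795 and 0.826. None of 13 tubulin modifying enzymes did either. SVBP, the partner of the vasohibins that remove the C-terminal tyrosine of alpha-tubulin, had ratios of 1.45 and 1.21. Of the genes of tubulin mRNA autoregulation 2 were measured past the limit, and CNOT11, a subunit of the CCR4-NOT deadenylase, had ratios of 0.728 and 0.772. The second gamma-tubulin, TUBG2, had ratios of 0.989 and 1.06. Of the other alpha- and beta-tubulins past the limit, TUBAL3 had ratios of 0.886 and 0.844 and TUBB4A of 0.893 and 1.03. TUBA3C, TUBA3D and TUBA3E lay between 0.904 and 1.03 for si-WDR5-2 and between 0.982 and 1.00 for si-WDR5-3.

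**Figure D3:**
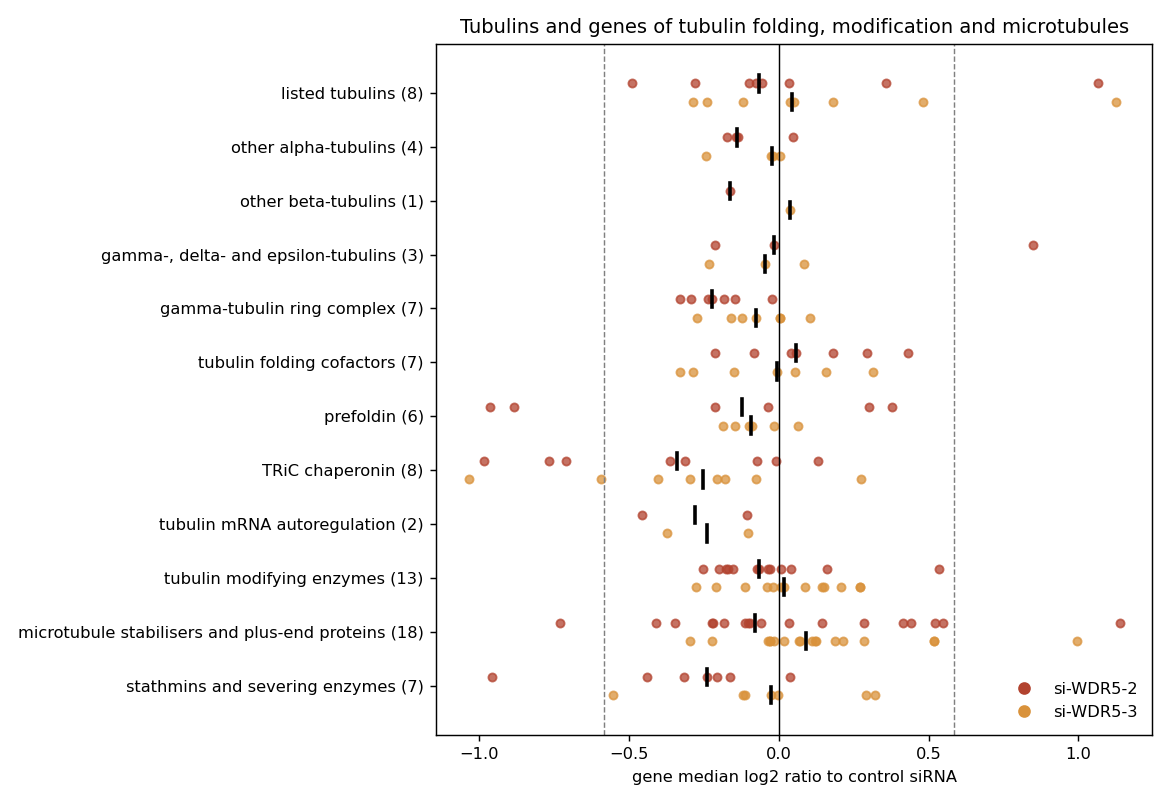
Log2 ratio to control siRNA of each gene (median over its probe sets past the limit), with si-WDR5-2 above si-WDR5-3 in each list, the number of genes in brackets, the list median as a black bar and dashed lines at 1.5 times and its inverse. TUBA1A and CLIP1 stand at the right with both siRNAs, and CCT7 at the left, with ratios of 0.506 and 0.488.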

How the data were processed

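Total RNA of UM-UC-3 cells was measured on 3 PrimeView arrays, 1 per condition, grouped by the sample titles. The authors scanned the arrays on a GeneChip scanner, analysed them with GCOS 1.4 and deposited 1 linear intensity per probe set. How background was corrected and the intensities were summarised and normalized is not stated in the labels or methods, and the table holds no detection calls. Since the medians of the arrays were close, no further scaling was applied.

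Log2 ratios to the control array were taken without an offset for 24647 probe sets with a mean log2 intensity over the 3 arrays at or above the median. A gene value is the median over its single-symbol probe sets. The annotation gave 1 symbol for 45064 probe sets, several for 1756 and none for 2473. Ratios of at least 1.5 or at most 0.67 were counted as higher or lower, and the ratio script was tested on simulated data. With 1 array per condition no p-value was computed, and the number of arrays limits the precision. Beyond the tubulins, genes were named from fixed lists where they passed 1.5-fold with either siRNA (up to 4 per list) or else as the list's largest difference, and the 5 genes nearest to TUBA1A were added. The lists of interferon-induced and proliferation genes were used as medians and as counts of genes, with CXCL10 named as an example. The flanking genes, the other tubulins and the marker genes were named for their position, role or class. CCT5, PFDN2 and PFDN6 were added as the TRiC and prefoldin genes above the control with si-WDR5-2. MAPRE1 was added for the spread between its probe sets. The members and lists were chosen with earlier results of these data known. Alternatives were median centring, quantile normalization, 3 other filters, adding 84.8, the 20th percentile of the intensities, before log2, a 2-fold limit, the brightest probe set and the mean over probe sets. Leaving out or adding ambiguous probe sets was chosen after seeing the data. Python 3.11.15 with pandas 2.3.3 and numpy 2.4.6 was used.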

Additional observations from a re-analysis of the deposited data

Results flagged for a closer look

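Of 84 tubulin and pathway genes past the intensity limit, 4 were higher than the control with one siRNA, lower with the other, and at least 1.5-fold apart between them. The same held for 19 of 20 interferon-induced genes and 2 of 17 proliferation genes. CXCL10, 1 of the 19, passed the limit only through the si-WDR5-2 array. The share over all genes was not computed, so these counts have no array-wide value beside them. With 1 array per condition none of these differences was tested. TUBE1 was at 0.85 on the log2 scale for si-WDR5-2 and at -0.23 for si-WDR5-3, a difference of 1.08. VBP1 had -0.96 and 0.06, a difference of -1.03. STMN3, a stathmin, had -0.44 and 0.32, a difference of -0.76. SPAST, the severing enzyme spastin, had -0.32 and 0.29, a difference of -0.61. STMN3 and SPAST were named after their values were seen. The median of the interferon-induced genes was 2.14 and -0.64, a difference of 2.78.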

How the results depend on the processing

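The counts of tubulin probe sets at least 1.5 times the control (2 with each siRNA and 2 with both) and at most 0.67 times (0 in each case) were the same with median centring, quantile normalization, no filter, filters at the 25th and 75th percentile, an offset before log2, a 2-fold limit and with probe sets shared with another symbol added. Without the probe sets whose ID ends in x, the count of higher ones was 0 with si-WDR5-2, 0 with si-WDR5-3 and 0 with both, since both TUBA1A probe sets were left out. The median of the tubulin genes moved by less than the usual SD between probe sets of a gene under all of the 10 alternatives that apply to it. That SD, 0.078 for si-WDR5-2 and 0.071 for si-WDR5-3, is larger than the medians of -0.07 and 0.04, so it is a wide limit. The median stayed below the control for si-WDR5-2 and above it for si-WDR5-3 under each of these alternatives. Of 138 recomputed values of genes with several probe sets, 128 moved by less than the gene's own SD over probe sets and 10 by more. A change of sign was counted only for values past 1.5-fold, which were those of TUBA1A alone. These kept their sign wherever TUBA1A had a value. The 18 of TUBB3, which has 1 probe set, moved by less than the median SD of all genes with several. TUBA1A ranged down to 1.00 on the log2 scale for si-WDR5-2 and 1.06 for si-WDR5-3 after the offset. With the probe sets shared with TUBA1B added it was 0.379 and 0.581, and the gene was no longer at least 1.5 times the control with either siRNA. TUBB was at 0.16 with si-WDR5-3 without the probe sets that end in x, above the control and not below it. No paired analysis was possible because each condition has 1 array, and for the same reason no replicate could be left out.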

Other observations

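The delta-tubulin TUBD1 and the beta-tubulins TUBB1 and TUBB8 lay below the intensity limit and were not counted. TUBD1 had 123, 106 and 107 on the si-WDR5-2, si-WDR5-3 and control arrays for 1 probe set and 117, 111 and 101 for the other. TUBB1, the beta-tubulin of platelets, had 137, 151 and 140, and the 2 probe sets of TUBB8, known from oocytes, lay between 63.8 and 86.4 on all 3 arrays. Among the protein-coding neighbours of the listed tubulins, AFG3L2, next to TUBB6, had ratios of 1.55 for si-WDR5-2 and 1.34 for si-WDR5-3, and was chosen after its values were seen. PSMG4, next to TUBB2B, had ratios of 1.44 and 1.11.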
